A study of Mus musculus with 4 samples.

Results

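The tumour necrosis factor (TNF) ligand and receptor superfamily genes described here were chosen by name alone, as every gene in the deposited gene list whose symbol starts with Tnfsf or Tnfrsf followed by a number. Of 31053 genes, 32 matched, and Tnfrsf4, Tnfrsf9 and Tnfrsf18 were left out, so that 29 genes remained: 11 ligands, 17 receptors and the antisense RNA gene Tnfsf13os. They were measured by droplet-based 3′ single-cell RNA sequencing, which counts transcripts by unique molecular identifiers (UMIs), in CD45.2-positive, 7-AAD-negative live immune cells sorted from the lungs of C57BL/6 mice. There were 4 libraries: Ift20 f/f mice given DPBS, a saline buffer (DPBS WT), Ift20 f/f CD4 cre mice given DPBS (DPBS KO), and the same genotypes given papain, a plant protease used as an allergen (Papain WT and Papain KO). Papain was given intranasally at 25 µg on 3 consecutive days and again on day 14 after the first dose, and cells were taken on day 15. Both genotypes carry the floxed Ift20 alleles, and the Cre driven by the Cd4 promoter is active from the stage of T cell development at which both CD4 and CD8 are made, so both CD4 and CD8 T cells are targeted. The labels give neither the age of the mice nor how many mice made up a library.

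Each group was 1 library, so no difference below could be tested against the spread between mice. Every interval covers counting error only, as an exact 95% Poisson interval or the interval it gives for a ratio, and is therefore too narrow as a measure of biological error. Levels are given as UMIs of a gene per 1000000 UMIs of the cell class in that library (CPM), always with the DPBS libraries first, WT before KO, and then Papain WT and Papain KO, and they are compared between classes and libraries for the same gene, not between genes.

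TNF superfamily ligands are mostly trimeric type II membrane proteins that act in the membrane or after shedding, and their receptors carry cysteine-rich extracellular repeats. Some receptors hold a death domain and can start caspase signalling. The others recruit TRAF adaptors and feed the NF-kappa-B and MAP kinase pathways, and a few are decoys that bind ligand without signalling. In the lung, members of the family set B cell survival (BAFF, APRIL and their receptors), co-stimulate T cells and innate lymphoid cells (CD30 ligand, 4-1BB ligand, TL1A with its receptor DR3), and pass inflammatory signals to macrophages and granulocytes through the TNF receptors.

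The windows directly upstream of the RefSeq start are shown for the 5 members with a window on which the comparisons below turn: Tnfsf8, Tnfsf11 and Tnfsf10, which were higher together in CD4 T-like cells of Papain WT, Tnfrsf8, which encodes the receptor for the Tnfsf8 product, and Tnfsf13b, which encodes BAFF. They are from RefSeq on GRCm38.p6, printed in the direction of transcription and ending before any base of the annotated gene, which leaves 187 bases for Tnfsf8, 201 for Tnfsf10 and 250 for the others. Capitals mark motif letters named in the next paragraph.
Tnfsf8, chr4:63861348-63861534, minus strand: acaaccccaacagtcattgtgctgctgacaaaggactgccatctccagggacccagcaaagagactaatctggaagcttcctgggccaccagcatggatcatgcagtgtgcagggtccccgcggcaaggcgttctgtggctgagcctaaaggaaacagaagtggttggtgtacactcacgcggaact
Tnfsf11, chr14:78308044-78308293, minus strand: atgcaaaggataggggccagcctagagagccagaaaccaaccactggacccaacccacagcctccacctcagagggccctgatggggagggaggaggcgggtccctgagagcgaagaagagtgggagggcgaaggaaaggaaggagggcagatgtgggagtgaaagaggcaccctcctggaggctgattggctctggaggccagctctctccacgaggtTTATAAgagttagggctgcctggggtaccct
Tnfsf10, chr3:27316827-27317027, plus strand: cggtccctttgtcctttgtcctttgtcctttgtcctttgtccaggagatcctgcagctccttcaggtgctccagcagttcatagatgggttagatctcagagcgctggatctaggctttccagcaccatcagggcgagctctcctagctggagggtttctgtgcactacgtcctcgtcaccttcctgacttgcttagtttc
Tnfrsf8, chr4:145315165-145315414, minus strand: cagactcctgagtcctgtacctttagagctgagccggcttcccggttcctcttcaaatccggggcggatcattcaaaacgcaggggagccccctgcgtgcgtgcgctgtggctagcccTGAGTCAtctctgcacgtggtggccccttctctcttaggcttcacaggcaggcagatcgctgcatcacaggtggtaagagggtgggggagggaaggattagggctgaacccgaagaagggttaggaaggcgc
Tnfsf13b, chr8:10006217-10006466, plus strand: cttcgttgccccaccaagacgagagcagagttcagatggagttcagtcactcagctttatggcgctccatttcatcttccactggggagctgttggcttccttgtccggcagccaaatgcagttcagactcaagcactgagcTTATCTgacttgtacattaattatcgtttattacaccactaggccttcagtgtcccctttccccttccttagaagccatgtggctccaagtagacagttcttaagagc

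RefSeq windows were given for 21 of the 29 members. The NF-kappa-B site, GGGA and any base before TTTCC, was on either strand in 0.356% of all 32851 RefSeq windows, each of the 250 bases before a start, and in the windows of 0 of the 21 members. TGANTCA, the AP-1 site, was in 6.75% of all windows and in those of 4 members, among them Tnfrsf8, where TGAGTCA lay 132 to 126 bases before the start, and Tnfsf13b, in a second window not shown. TGGAAAA, the core of an NFAT site, was in 5.93% of all windows and in that of 1 member, Tnfrsf13c. AGATAA, which binds GATA factors, was in 9.99% of all windows and in that of Tnfsf13b alone, as TTATCT on the other strand 108 to 103 bases before the start. TATAA was in 22.8% of all windows and in those of 6 members, and in Tnfsf11 it lay 30 to 26 bases before the start, overlapping the same letters on the other strand. The windows of Tnfsf8, Tnfsf11 and Tnfsf10 held none of the other 4 sets of letters.

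After filtering, 25831 cells were kept, 7559, 5421, 7424 and 5427 per library. Libraries shared between 5 and 13 cell barcodes by pair, at most 0.24% of the smaller library. Cells were clustered without the 29 members, without other TNF family and signalling genes and without Ift20, and clusters were named from markers, none of which was a member. The deposited files were used without an annotation of cells, so the names end in "-like", and where a level departs from the study's, the rebuilt names may be why. In all, 11 classes had at least 50 cells in every library: B, CD4 T, CD8 T, ILC2 (group 2 innate lymphoid cells), NK, alveolar macrophage, interstitial macrophage, classical monocyte, nonclassical monocyte, conventional DC (dendritic cell) and neutrophil. Epx, an eosinophil granule gene, had at most 1 UMI in any library, so eosinophils could not be described. Ift20, the deleted gene, stood at 56.4, 21.8, 57.6 and 17.5 CPM in CD4 T-like cells and at 51.7, 16.2, 52.4 and 16.7 CPM in CD8 T-like cells, lower in both KO libraries, and at 44.0, 34.4, 38.8 and 40.2 CPM in B-like cells.

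Of the 29 members, 22 had at least 200 UMIs over all kept cells and are described by level, and 7 had fewer: Tnfsf4, Tnfsf13, Tnfsf13os, Tnfsf15, Tnfsf18, Tnfrsf11b and Tnfrsf19. The highest of the 11 classes was the same in all 4 libraries for 11 of the 22. Classes were also ranked by their median over the 4 libraries, and the first was compared with the second alone. For 11 of the 22 the levels of these did not overlap. A class ranked lower could still overlap the first. Conventional DC-like cells did so for Tnfrsf12a, CD4 T-like cells for Tnfsf10 and interstitial macrophage-like cells for Tnfrsf11a.

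**Figure D1:**
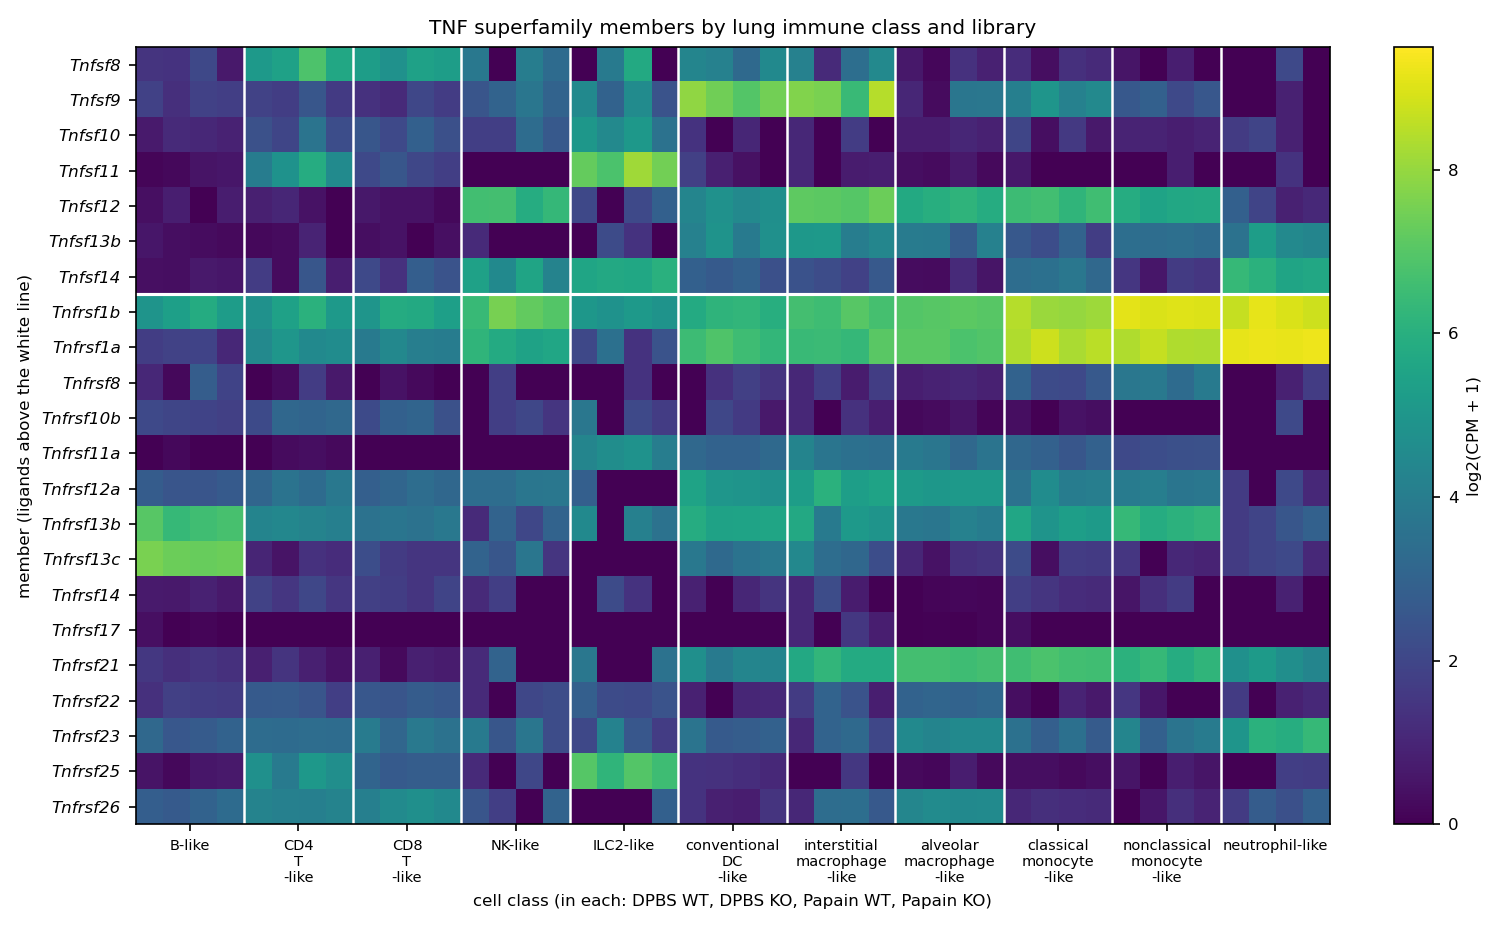
Level of each of the 22 described members (rows) in the 11 cell classes (columns), as log2 (CPM + 1) in the 4 libraries of each class, with brighter colours for higher levels. Over the libraries the median was 166 CPM for Tnfrsf13c in B-like cells, 163 and 109 CPM for Tnfsf11 and Tnfrsf25 in ILC2-like cells, and 592 CPM for Tnfrsf1a in neutrophil-like cells.

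The receptors for BAFF and APRIL marked the B lineage. Tnfrsf13c, which encodes the BAFF receptor, stood at 194, 165, 157 and 166 CPM in B-like cells, which held 90.8% of its UMIs. With each cell thinned to 1000 UMIs it was seen in 17.6%, 15.0%, 15.4% and 15.7% of B-like cells and in at most 0.153% of CD4 T-like cells, a class that should lack it. Unthinned, the shares were 50.9%, 46.1%, 51.1% and 54.6% in B-like cells and at most 1.00% in CD4 T-like cells, with median depths of 3883 to 4781 and 5309 to 6245 UMIs. Tnfrsf13b (TACI, which binds both BAFF and APRIL) stood at 130, 81.6, 93.9 and 107 CPM in B-like cells and was highest there in every library, but its range overlapped that of nonclassical monocyte-like cells, at 81.8, 58.6, 67.2 and 74.7 CPM. Tnfrsf17 (BCMA, the receptor of plasma cells) had 81.1% of its UMIs in the 44 plasma-like cells, at 112, 119, 109 and 150 CPM, a class too small for comparison.

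Tnfsf13b, the BAFF ligand itself, was read in macrophages, dendritic cells and neutrophils instead. The highest class differed between libraries, with interstitial macrophage-like cells at 32.4, 33.3, 15.2 and 19.6 CPM, conventional DC-like cells at 17.2, 28.4, 14.0 and 26.4 CPM and neutrophil-like cells at 10.8, 37.7, 21.0 and 19.2 CPM, which rest on 5 to 26 UMIs each. These 3 classes overlapped and no order among them could be read. Tnfsf13, which encodes APRIL, stayed below 200 UMIs in all.

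ILC2-like cells held the highest level of 4 members in every library. Tnfsf11 (RANKL, the ligand of RANK) stood there at 150, 112, 279 and 176 CPM, above CD4 T-like cells at 15.0, 27.4, 58.2 and 22.2 CPM in each library. Tnfrsf25 encodes DR3, the death-domain receptor through which TL1A co-stimulates T cells and ILC2s, and it stood at 125, 73.5, 125 and 92.7 CPM, against 26.6, 14.1, 32.8 and 24.8 CPM in CD4 T-like cells. Tnfsf10 (TRAIL, which binds death receptors) stood at 31.3, 21.0, 32.8 and 11.0 CPM on 5 to 20 UMIs per library. For Tnfrsf11a, which encodes RANK, the class median was 21.7 CPM, but ILC2-like cells held only 37 of its UMIs over the libraries, or 2.77%. In DPBS WT they stood at 18.8 CPM on 6 UMIs, beside interstitial macrophage-like cells at 18.4 CPM on 17 UMIs. The 89 mature DC-like cells, too few to compare, stood at 81.8, 82.8, 73.9 and 97.7 CPM. The genes of RANK and of its ligand were thus both read in ILC2-like cells. Tnfsf15, which encodes TL1A, stayed below 200 UMIs in all cells.

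There were 69, 50, 83 and 79 ILC2-like cells, and in the 4 comparisons between libraries no member with at least 50 UMIs in the libraries compared differed 2-fold there. Tnfsf11 was higher with papain by 0.89 (0.42 to 1.39, log2 ratio) in WT and by 0.66 (0.05 to 1.29) in KO, with Papain WT the highest library. Tnfrsf25 did not differ beyond counting error in WT, with a ratio of -0.01 (-0.58 to 0.58). Tnfsf8 was read in 11 ILC2-like cells of Papain WT, with 33 UMIs, and had 0, 4 and 0 UMIs in DPBS WT, DPBS KO and Papain KO, too few to be taken.

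The TNF receptors followed the myeloid lineages. Tnfrsf1a (TNFR1, the widely used receptor with a death domain) was highest in neutrophil-like cells in every library, at 568, 598, 586 and 615 CPM, and low in B-like cells, at 2.28, 2.62, 2.72 and 1.08 CPM. Tnfrsf1b (TNFR2, which has no death domain) stood at 556, 503, 530 and 505 CPM in nonclassical monocyte-like cells and at 401, 566, 495 and 440 CPM in neutrophil-like cells, which overlapped. Of the compared lymphocyte classes taken whole, NK-like cells had the most Tnfrsf1b, at 84.6, 188, 147 and 123 CPM. Within CD4 T-like cells it was higher in cells with a UMI of Foxp3, the factor of regulatory T cells, at 127, 230, 315 and 181 CPM, than in those without, at 22.0, 36.8, 43.2 and 24.8 CPM.

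Macrophages and monocytes shared several other members. Tnfsf12 (TWEAK) was highest in interstitial macrophage-like cells in every library, at 139, 138, 128 and 162 CPM, above classical monocyte-like cells at 91.1, 97.5, 73.9 and 94.8 CPM. Tnfsf13 starts 465 bases downstream of Tnfsf12 on the same strand, and Tnfsf13os overlaps Tnfsf12 by 4892 bases on the other. Whether reads of these neighbours were counted for Tnfsf12 was not tested. Tnfrsf12a (Fn14, the TWEAK receptor) stood at 37.8, 66.6, 39.3 and 44.6 CPM in the same cells and at 35.5, 31.7, 33.2 and 33.9 CPM in alveolar macrophage-like cells, so the ligand and receptor genes were both read in interstitial macrophage-like cells. Tnfrsf21 (DR6, a death-domain receptor) stood at 101, 101, 91.9 and 101 CPM in alveolar macrophage-like cells and at 94.3, 111, 97.0 and 96.0 CPM in classical monocyte-like cells, which overlapped.

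Tnfsf9 (4-1BB ligand, whose receptor co-stimulates T cells) was a gene of conventional DC-like cells, at 241, 171, 123 and 176 CPM, and of interstitial macrophage-like cells, at 205, 193, 85.0 and 349 CPM. These ranges overlapped, and both lay well above the next of the 11 classes, classical monocyte-like cells, at no more than 30.4 CPM in any library. The mature DC-like cells, too few to compare, stood at 191, 45.1, 131 and 313 CPM. In interstitial macrophage-like cells 1 cell held 38.9% of the 162 UMIs of DPBS KO. Tnfsf14 (LIGHT) was highest in neutrophil-like cells of both DPBS libraries and in ILC2-like cells of both papain libraries, at 82.4, 66.7, 45.2 and 50.8 CPM and at 47.0, 52.5, 49.3 and 64.0 CPM. The ranges of neutrophil-like and ILC2-like cells overlapped, on 162 and 89 UMIs over the libraries, and no order between them could be read. Tnfrsf14, which encodes the LIGHT receptor HVEM, had 228 UMIs in all and levels of a few CPM in T cells.

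The mouse decoy TRAIL receptors Tnfrsf22 and Tnfrsf23 and their neighbour Tnfrsf26 lie beside each other on chromosome 7 with gaps of 6083 and 16147 bases, and as close paralogs their reads could be split between them. Tnfrsf23 was highest in neutrophil-like cells in every library, at 30.4, 66.7, 59.0 and 82.4 CPM. Tnfrsf22 was highest in alveolar macrophage-like cells, at 6.96, 7.53, 7.16 and 8.05 CPM. Tnfrsf26 did not separate alveolar macrophage-like cells, at 19.4, 22.9, 21.7 and 22.7 CPM, from CD8 T-like cells, at 16.3, 22.3, 25.5 and 21.9 CPM. Tnfrsf10b, the only signalling TRAIL receptor of the mouse, was read mainly in T and B cells, at a few CPM.

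CD30 and its ligand were highest in different classes. Tnfsf8 (CD30 ligand) was read in T cells, at 34.2, 41.8, 114 and 51.4 CPM in CD4 T-like cells and at 37.6, 27.2, 42.1 and 38.2 CPM in CD8 T-like cells. Tnfrsf8 (CD30) was highest in nonclassical monocyte-like cells in every library, at 12.6, 13.2, 9.03 and 13.7 CPM, and lower in B-like cells, at 1.09, 0.146, 6.02 and 2.75 CPM. Both genes were also read in the CD4 T-like cells with a Foxp3 UMI, Tnfrsf8 at 0, 7.19, 19.4 and 10.7 CPM on 0, 1, 12 and 3 UMIs and Tnfsf8 at 38.7, 129, 21.0 and 99.6 CPM. Of the low members, Tnfrsf11b, which encodes the secreted RANKL decoy osteoprotegerin, had 20 UMIs in 4 mature DC-like cells of DPBS WT and 0 in that class of the other libraries.

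For the comparisons between libraries, a gene was taken in a class when the libraries compared held at least 50 UMIs of it together. It was called when its CPM differed at least 2-fold. The counting interval of the ratio was not part of this rule, for members or for all genes. The 4 comparisons share libraries in pairs, so their calls are not independent of each other. In at least 1 comparison 20 members were taken in at least 1 class, and 12 were called, or 60.0%, against 26.6% of all genes taken. In CD4 T-like cells the median gene was itself 0.12 higher (log2) in Papain WT than in DPBS WT and 0.12 lower in Papain KO than in Papain WT, and ratios there are to be read against these shifts.

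The first comparison asked what papain changed in Ift20 f/f mice, and it gave the most calls. Between Papain WT and DPBS WT, 9 of 96 pairs of a member and a class (9.38%) were higher, against 2.18% over all genes, and 3 (3.12%) were lower, against 0.761%. The median ratio of the 96 pairs was 0.03 (log2), against 0.02 over all genes, so the members as a whole were not shifted. Of the 9 higher pairs, 6 lay in CD4 T-like cells, where 14 members were taken. That is 42.9% of them, against 3.78% of all genes in that class.

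In CD4 T-like cells 4 ligand genes were higher with papain in WT. Tnfsf8 went from 215 to 864 UMIs, a log2 ratio of 1.74 (1.52 to 1.96). Tnfsf11 went from 94 to 440 UMIs, a ratio of 1.96 (1.63 to 2.29). The DPBS libraries and Papain KO ranged from 34.2 to 51.4 CPM for Tnfsf8 and from 15.0 to 27.4 CPM for Tnfsf11, with Papain WT above at 114 and 58.2 CPM. Within that range Tnfsf11 was higher in DPBS KO than in DPBS WT by 0.87 (log2). Tnfsf10, at 4.14, 2.91, 11.5 and 3.73 CPM, was also highest in Papain WT, on few counts, 26 against 87 UMIs and a ratio of 1.47 (0.83 to 2.17). Tnfsf14 rested on 14 against 37 UMIs, at 2.23, 0.208, 4.89 and 0.745 CPM and a ratio of 1.13 (0.21 to 2.14), which was 0.71 when T cells were gated on transcripts instead of clustered.

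Of the receptor genes, Tnfrsf1b went from 168 to 495 UMIs in CD4 T-like cells of WT, at 26.8, 42.4, 65.4 and 33.0 CPM and a ratio of 1.29 (1.03 to 1.55). Tnfrsf10b was low in DPBS WT alone, at 3.34, 8.11, 7.40 and 8.20 CPM, with a ratio of 1.15 (0.40 to 1.94). With doublets kept, both receptor genes fell short of 2-fold, at 0.92 for Tnfrsf1b and 0.99 for Tnfrsf10b. In CD8 T-like cells Tnfrsf10b stood at 3.39, 6.45, 7.34 and 4.13 CPM, with a ratio of 1.11 (0.36 to 1.89). In CD4 T-like cells the DPBS WT library was therefore the one apart for Tnfrsf10b, whereas in CD8 T-like cells Papain KO lay beside it, lower than Papain WT with a ratio of -0.83 (-1.61 to -0.07).

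**Figure D2:**
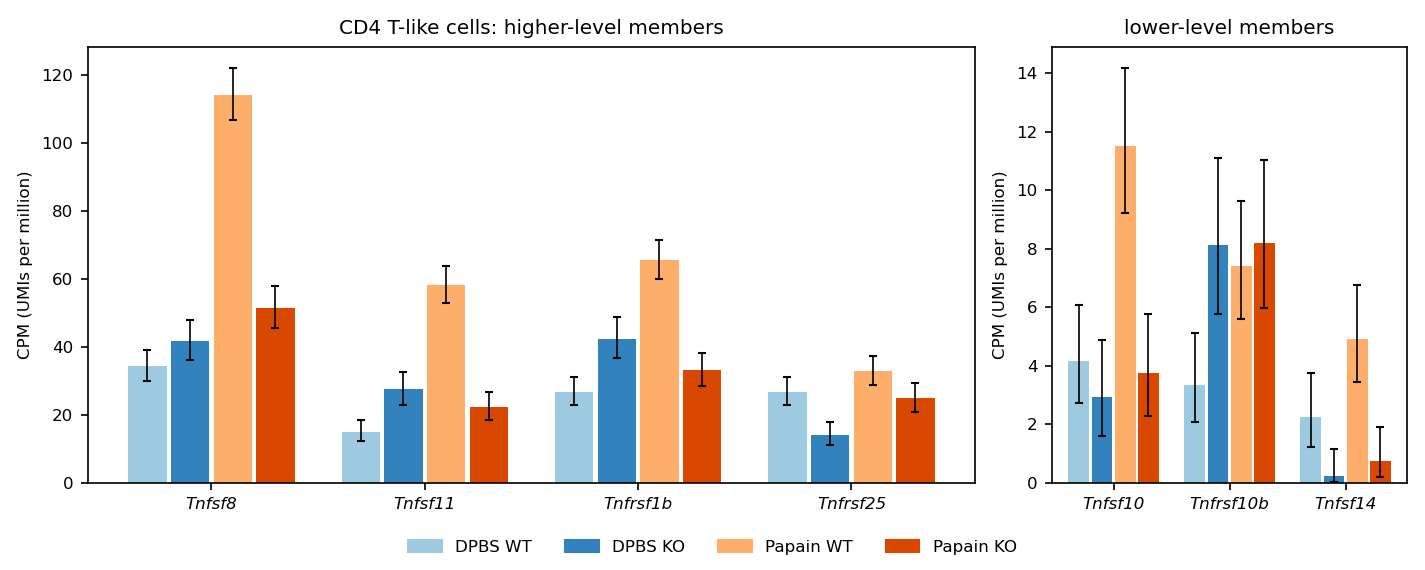
Levels (CPM) of 7 members in CD4 T-like cells, each bar 1 library and each line its exact 95% Poisson interval, with lower-level members on their own axis. Tnfsf8, Tnfsf11 and Tnfsf10 lie apart in Papain WT, at 114, 58.2 and 11.5 CPM.

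Much of the difference in Tnfsf8 and Tnfsf11 sat in 1 sub-cluster of T cells, led by Ctla4, Ccr4, Cxcr3 and Tnfsf11. It held 48, 28, 176 and 43 CD4 T-like cells, and in Papain WT it carried 589 of the 864 Tnfsf8 UMIs, or 68.2%, and 342 of the 440 Tnfsf11 UMIs. Of its 176 cells in Papain WT, 79 held a Tnfsf8 UMI, and the highest cell held 44. Within it Tnfsf8 stood at 36.3, 132, 425 and 90.8 CPM and Tnfsf11 at 67.8, 68.7, 247 and 73.2 CPM, so the level per UMI was higher in Papain WT as well as the number of cells. It also held 33 of the 37 Tnfsf14 UMIs of Papain WT and 7 of the 14 of DPBS WT. Within it Tnfsf14 stood at 17.0 CPM in DPBS WT and 23.8 CPM in Papain WT, under 2-fold apart. T cells with no single CD4 or CD8 call had the most in Papain WT too, with 45, 38, 221 and 82 Tnfsf8 UMIs and 14, 27, 190 and 10 Tnfsf11 UMIs among 177, 101, 225 and 99 cells.

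Without that sub-cluster the papain ratios of Tnfsf8 and Tnfsf11 in WT were smaller. For Tnfsf8 the papain ratio was 0.38 (0.12 to 0.65) in WT and 0.37 (0.08 to 0.66) in KO. For Tnfsf11 it was 0.50 (0.03 to 0.97) in WT and -0.45 (-0.86 to -0.05) in KO, but between the DPBS libraries Tnfsf11 differed more, higher in KO by 1.19 (0.74 to 1.64) against 0.87 in the whole class. Tnfsf10 stayed past 2-fold without those cells, at 1.10 (0.31 to 1.93) with papain in WT, on 20 against 45 UMIs. The ratios of Tnfrsf1b without those cells stayed near the ones with them, at 1.23 (0.94 to 1.52) in WT and -0.33 (-0.66 to -0.01) in KO. In the sub-clusters t0 and t1 alone, however, both led by Ly6c1 and holding most CD4 T-like cells, the WT ratio of Tnfrsf1b was 0.52 (0.15 to 0.89). In CD4 T-like cells without a Foxp3 UMI, at 22.0 and 43.2 CPM on 132 against 300 UMIs, Tnfrsf1b was only just short of 2-fold. The WT ratio of Tnfsf10 in t0 and t1 alone was 0.29 (-0.68 to 1.27), on 18 against 22 UMIs. A sub-cluster led by Foxp3 and Ncmap (t9) held 37.8% of the Tnfrsf1b UMIs of Papain WT and 20.8% of those of DPBS WT. Another, led by Foxp3 and Lrrc32 (t6), held 2.63% and 1.19%. Of the Tnfsf10 UMIs, t9 held 20 of 87 in Papain WT and 2 of 26 in DPBS WT.

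**Figure D3:**
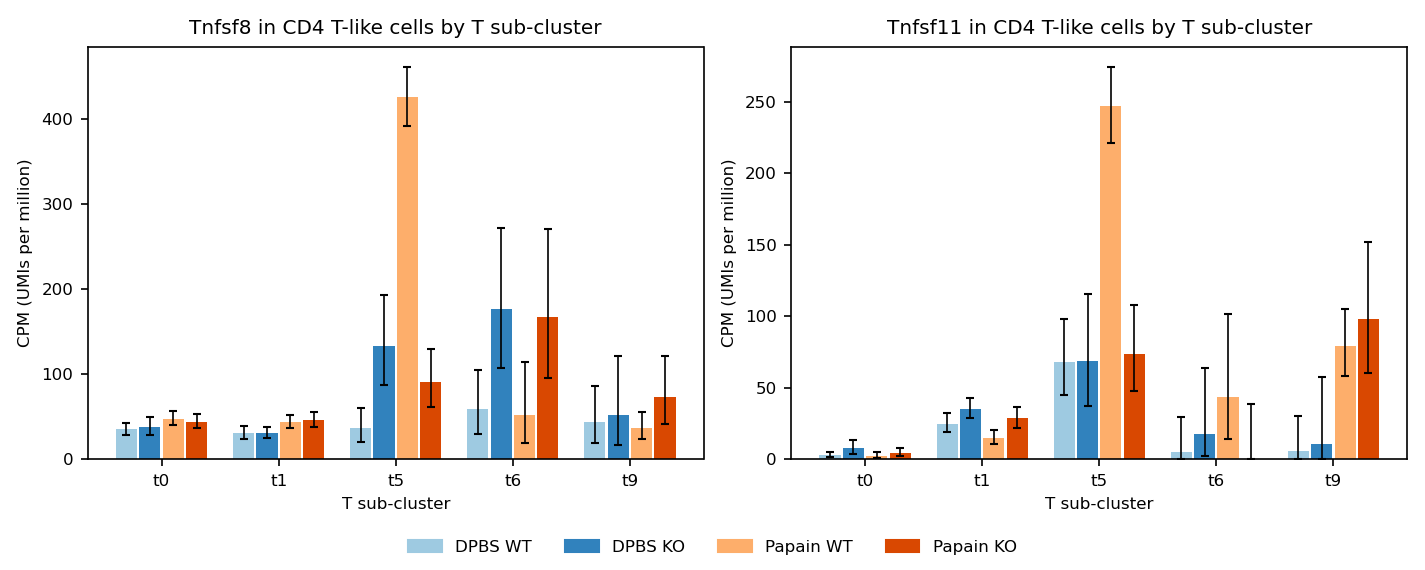
Levels (CPM) of Tnfsf8 and Tnfsf11 in CD4 T-like cells by T sub-cluster, each bar 1 library and each line its exact 95% Poisson interval. In the sub-cluster led by Ctla4 and Ccr4 (t5), Papain WT stands at 425 CPM for Tnfsf8 and 247 CPM for Tnfsf11.

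Outside T cells few members differed with papain in WT. In alveolar macrophage-like cells Tnfsf9 stood at 1.01, 0.214, 12.3 and 12.8 CPM, higher in both papain libraries, with a WT ratio of 3.61 (3.03 to 4.23) on 28 against 196 UMIs. Few cells carried it, 17, 5, 52 and 18 of 1430, 1179, 901 and 535, and in Papain KO 1 cell held 40.6% of the 138 UMIs. The cluster led by Flvcr2 and Il1a held most of it, at 1.3, 0.2, 16.9 and 22.0 CPM. Over other ways to pick the cells the ratio ranged from 1.71 to 4.15 in WT and from 3.88 to 5.90 in KO. Tnfsf13b moved the other way in the same class, at 14.3, 14.1, 5.78 and 16.9 CPM, so that Papain WT alone was low, with a ratio of -1.31 (-1.65 to -0.98) on 397 against 92 UMIs. It was lowest in Papain WT in all 3 alveolar macrophage-like clusters, at 5.0, 6.6 and 8.6 CPM against 11.8 to 19.6 CPM in the others.

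**Figure D4:**
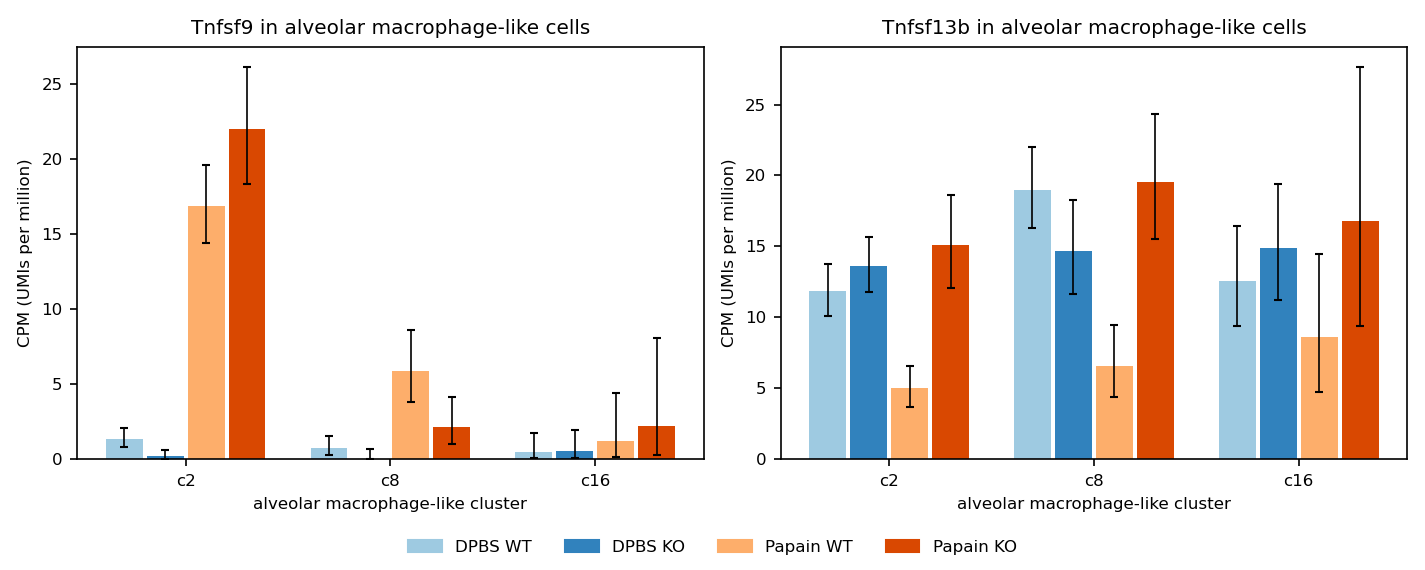
Levels (CPM) of Tnfsf9 and Tnfsf13b in the 3 alveolar macrophage-like clusters, each bar 1 library and each line its exact 95% Poisson interval. Tnfsf9 is high in both papain libraries in cluster c2, at 16.9 and 22.0 CPM, and Tnfsf13b is lowest in Papain WT in each cluster.

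In interstitial macrophage-like cells Tnfsf9 and Tnfsf13b were lower in Papain WT than in DPBS WT, at -1.27 (-1.54 to -0.99) and -1.09 (-1.78 to -0.38). The latter was -0.73 without the top cell of each library and -0.99 without cells holding UMIs of another lineage. The class held 75, 108, 296 and 78 cells whose median UMI counts differed widely, at 11530, 2849, 8210 and 16560, and B cell RNA in it also differed, with Cd79a at 365, 231, 140 and 90.6 CPM. The part of either in these results was not tested. In B-like cells Tnfrsf8 went from 11 to 73 UMIs, a ratio of 2.46 (1.54 to 3.53), and of its 113 UMIs over the libraries, 112 came from a small cluster led by Zbtb32 and Fcrl5, at 9.41, 1.28, 19.8 and 13.4 CPM.

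The same comparison in Ift20 f/f CD4 cre mice gave fewer calls. Between Papain KO and DPBS KO, 2 of 79 pairs (2.53%) were higher, against 1.09% over all genes, and 0 were lower, against 0.572%. The higher pairs were Tnfsf9 in alveolar macrophage-like cells, at a ratio of 5.90 (4.64 to 7.54) on 5 against 138 UMIs, and Tnfrsf13b in interstitial macrophage-like cells, at 51.8, 14.3, 34.6 and 29.5 CPM and a ratio of 1.04 (0.08 to 2.11) on 12 against 39 UMIs. The second was 0.83 without alignment of the libraries and 0.97 with a mitochondrial limit of 10%. Of the 78 pairs taken in both genotypes, 8 were called in WT alone, 1 in KO alone and 1 in both, namely Tnfsf9 in alveolar macrophage-like cells. These are 10.3%, 1.28% and 1.28% of the pairs, against 1.66%, 1.22% and 0.363% over all genes, and the difference between genotypes was not tested.

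**Figure D5:**
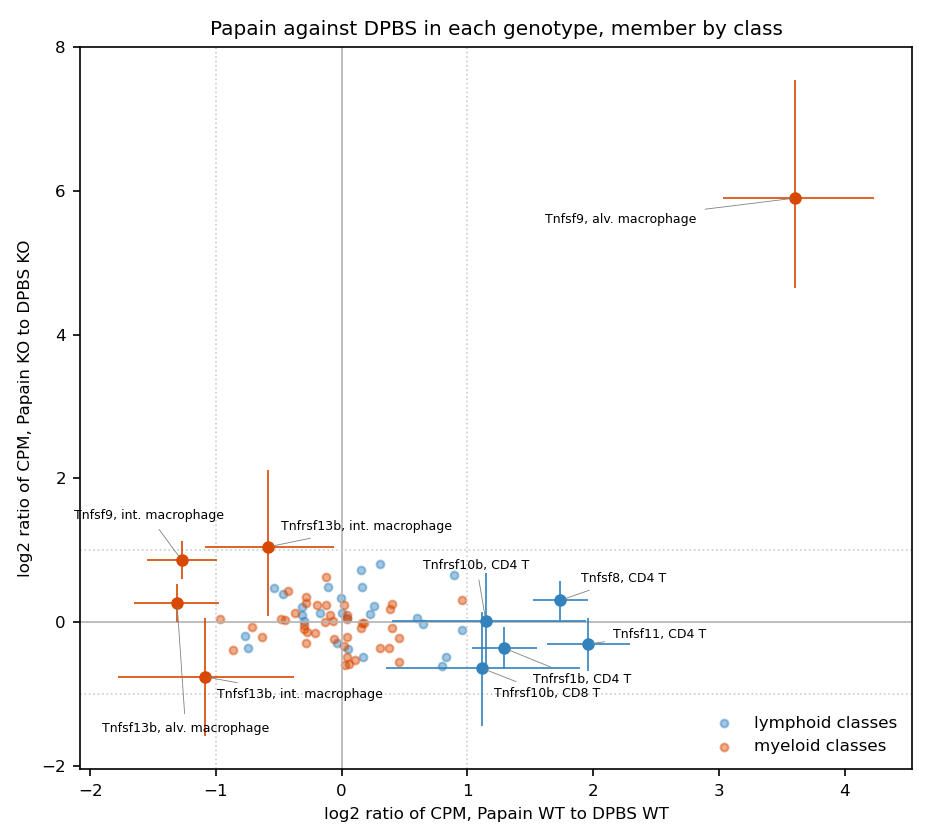
Papain ratio (log2) in WT on the horizontal axis against that in KO on the vertical axis, each point 1 of the 78 pairs of a member and a class taken in both genotypes, with a name and counting intervals at the pairs called in either genotype. Tnfsf8 and Tnfsf11 in CD4 T-like cells lie far to the right, at 1.74 and 1.96 in WT.

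Without papain the genotypes differed in a handful of pairs. Between DPBS KO and DPBS WT, 3 of 82 pairs (3.66%) were higher, against 0.777% over all genes, and 2 (2.44%) were lower, against 1.01%. Tnfrsf10b was higher in CD4 T-like cells by 1.28 (0.48 to 2.12), on 21 against 39 UMIs. Tnfrsf1b was higher in NK-like cells by 1.15 (0.67 to 1.63), and the neutrophil gene S100a8 moved with it there, at 1.2, 125, 9.2 and 8.9 CPM, with most of the 125 CPM in 1 cell. Tnfrsf12a was higher in classical monocyte-like cells, at 10.9, 23.4, 15.0 and 15.8 CPM, by 1.10 (0.54 to 1.68), or 0.91 without cells holding UMIs of another lineage. The lower pairs were Tnfrsf13b in interstitial macrophage-like cells, at -1.86 (-2.91 to -0.92), and Tnfrsf23 in nonclassical monocyte-like cells, at 19.2, 6.62, 11.6 and 14.6 CPM, at -1.53 (-2.52 to -0.63).

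With papain the genotypes differed in ligand genes of CD4 T-like cells, for Tnfsf8 and Tnfsf11 in the sub-cluster led by Ctla4 and Ccr4. Between Papain KO and Papain WT, 4 of 90 pairs (4.44%) were higher, against 0.659% over all genes, and 4 (4.44%) were lower, against 1.69%. Of the lower pairs, 3 were in CD4 T-like cells, where 11 members were taken, or 27.3% of them against 2.94% of all genes there. They were Tnfsf10 at -1.62 (-2.40 to -0.91), Tnfsf11 at -1.39 (-1.70 to -1.10) and Tnfsf8 at -1.15 (-1.35 to -0.95), on 20, 119 and 276 UMIs in Papain KO against 87, 440 and 864 in Papain WT. Without cells holding UMIs of another lineage the Tnfsf8 ratio was -0.97. In the sub-cluster led by Ctla4 and Ccr4 alone, Tnfsf8 was lower in Papain KO at -2.23 (-2.80 to -1.71), on 31 against 589 UMIs, and Tnfsf11 at -1.75 (-2.40 to -1.17). In the CD4 T-like cells outside it the ratio was 0.13 (-0.12 to 0.39) for Tnfsf8, 0.24 (-0.19 to 0.66) for Tnfsf11 and -1.02 (-1.90 to -0.21) for Tnfsf10, and in t0 and t1 alone Tnfsf11 was higher in Papain KO by 0.89 (0.34 to 1.45). Tnfsf10 in t0 and t1 alone was at -0.45 (-1.53 to 0.58), on 14 against 22 UMIs. The other lower pair was Tnfrsf8 in B-like cells, at -1.13 (-1.82 to -0.49). Within the cluster led by Zbtb32 and Fcrl5, which held 265 cells of Papain WT and 156 of Papain KO, the levels were 19.8 and 13.4 CPM, under 2-fold apart.

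The higher pairs in Papain KO lay in myeloid cells. Tnfsf13b was higher in alveolar macrophage-like cells by 1.55 (1.18 to 1.93), which is the counterpart of its low level in Papain WT. Tnfsf9 was higher in interstitial macrophage-like cells by 2.04 (1.82 to 2.26), at 85.0 against 349 CPM. Tnfsf8 was higher in conventional DC-like cells by 1.39 (0.62 to 2.19), on 24 against 39 UMIs, and in interstitial macrophage-like cells by 1.10 (0.31 to 1.89). In those classes Cd3e, a T cell gene, was also higher in Papain KO, at 17.5 against 26.4 CPM and at 12.4 against 17.4 CPM, and its part in the Tnfsf8 result was not tested.

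Genes of the family without such symbols, and of its signalling, were taken from lists chosen for this tissue. Of 15 other family genes, none was called in CD4 T-like cells in any comparison. Tnf was lower with papain in WT in interstitial macrophage-like cells, at 297, 256, 131 and 398 CPM, and in conventional DC-like cells, at 175, 116, 56.2 and 117 CPM, and was higher in Papain KO than in Papain WT in both and in neutrophil-like cells, at 26.0, 29.0, 33.1 and 102 CPM. Interstitial macrophage-like cells thus had the same order for Tnf and Tnfsf9. Cd40, the co-stimulatory receptor of antigen-presenting cells, stood at 36.8, 91.3, 107 and 41.6 CPM in conventional DC-like cells. Fasl, the ligand of the death receptor Fas, stood at 5.22, 10.8, 13.3 and 5.41 CPM in CD8 T-like cells, high in DPBS KO and in Papain WT. Ltb, which encodes lymphotoxin beta, was lower in DPBS KO than in DPBS WT in classical monocyte-like, conventional DC-like and interstitial macrophage-like cells, at -1.71, -2.29 and -1.32, and Cd79a, a B cell gene, was lower there too, at 6.4 against 65.3 CPM, 3.8 against 34.4 CPM and 231 against 365 CPM, a part that was not tested. Over pairs of a family gene and a class, 3 were higher and 3 lower of 62 with papain in WT (4.84% each, against 2.18% and 0.761% over all genes). With papain in KO it was 5 and 1 of 58 (8.62% and 1.72%, against 1.09% and 0.572%). Between the DPBS libraries it was 2 and 4 of 55 (3.64% and 7.27%, against 0.777% and 1.01%), and between the papain libraries 4 and 2 of 62 (6.45% and 3.23%, against 0.659% and 1.69%).

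Of 23 signalling genes, 3 were higher in CD4 T-like cells with papain in WT, against 3.78% of all genes taken in that class. Nfkb1, which encodes the p105 precursor of NF-kappa-B, stood at 158, 227, 324 and 196 CPM, a ratio of 1.04 (0.94 to 1.15). Nfkb2, the precursor of the alternative pathway, stood at 28.2, 58.2, 56.6 and 42.3 CPM, with 1.00 (0.75 to 1.27) for papain in WT and 1.05 (0.77 to 1.33) for DPBS KO against DPBS WT. Traf3, an adaptor that restrains that pathway, stood at 9.71, 13.3, 23.4 and 9.69 CPM, with 1.27 (0.84 to 1.71) for papain in WT and -1.27 (-1.75 to -0.82) for Papain KO against Papain WT. Nfkb1 and Traf3 were thus highest in Papain WT, as the ligand genes were, and Nfkb2 was not. For Nfkb1 and Nfkb2 the papain ratios in WT passed 2-fold by less than the 0.12 (log2) by which the median gene of the class was higher. In CD8 T-like cells Nfkb2 was higher in DPBS KO by 1.06 (0.80 to 1.33). Birc3, an inhibitor of apoptosis bound by TRAF2, was higher with papain in WT in CD8 T-like cells by 1.02 and in NK-like cells by 1.10. Over pairs, 6 were higher and 1 lower of 221 with papain in WT, or 2.71% and 0.453%, against 2.18% and 0.761% over all genes. They were 1 and 0 of 206 with papain in KO (0.485% and 0%, against 1.09% and 0.572%), 3 and 3 of 202 between the DPBS libraries (1.49% each, against 0.777% and 1.01%) and 0 and 2 of 219 between the papain libraries (0% and 0.913%, against 0.659% and 1.69%).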

How the data were processed

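The authors deposited, per library, a matrix of raw UMI counts per gene and cell, made with Cell Ranger against mm10 per the labels, with 31053 genes under Ensembl identifiers (the annotation release is not given in the sources used here). Cell calling had been done before deposit. Library totals ran over all deposited barcodes, 8552, 5946, 8444 and 5863. Cells with more than 200 genes and under 15% mitochondrial UMIs were kept, the limits the study states for another single-cell experiment, and doublets were marked with the highest Scrublet scores (scanpy 1.11.5) at an assumed rate of 0.8% per 1000 barcodes, 585, 283, 570 and 275 cells. Libraries were aligned and clustered in Seurat 5.3.0 (2000 variable genes, 30 dimensions, resolution 0.8), with 709 genes kept out of the variable genes, among them the members, the listed family and signalling genes and Ift20, and T cells were clustered again, which gave 27 first clusters and 16 T sub-clusters. Clusters were named from marker lists, by scoring rules set after the clusters had been seen (at least 3 markers detected, a second class under 70% of the best score). CD4 and CD8 T cells were called from the Cd4, Cd8a and Cd8b1 UMIs of each cell. In sub-clusters at least 85% pure for CD4 (t0 and t1) or CD8 (t2, t3 and t4), cells with no such UMI took the call of the sub-cluster. The cDC1-like and cDC2-like clusters were joined as conventional DC-like. Unnamed clusters held 295, 201, 417 and 328 cells.

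UMIs were summed per library and class and divided by the class total. Ratios between libraries have exact conditional 95% intervals, which cover counting error only, and the function was tested on simulated data. Since a group was 1 library, groups were not tested against each other and no p-value is given. The members called at least once were named with their values. Alternatives were a transcript gate in place of clusters, no alignment, doublets kept, a mitochondrial limit of 10%, a shift to the median gene, minimums of 20 UMIs and of 1, and leaving out the top cell. Leaving out cells with UMIs of another lineage was added after seeing the data, as was the TATAA search. The members, gene lists and marker lists were chosen with earlier results of these data known. Promoter windows are from RefSeq on GRCm38.p6, the assembly that mm10 names, and matched 21 members by symbol. Protein sequences were not used here.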

Additional observations from a re-analysis of the deposited data

Results flagged for a closer look

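Several ratios had opposite signs in the 2 genotypes or the 2 treatments, with counting intervals on opposite sides of 0. Each arm is 1 library, and none of these differences was tested. The comparisons set side by side share libraries, so a single library that stands apart gives opposite signs in both.

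Tnfrsf1b gave more of them than any other member, in lymphocytes and neutrophil-like cells. With papain it was higher in WT and lower in KO in CD4 T-like cells (1.29 and -0.36, log2), CD8 T-like cells (0.83 and -0.49), NK-like cells (0.80 and -0.61) and neutrophil-like cells (0.30 and -0.36). KO against WT, it was higher in the DPBS libraries and lower in the papain libraries in CD4 T-like cells (0.66 and -0.99), CD8 T-like cells (0.93 and -0.38) and B-like cells (0.44 and -0.62).

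For KO against WT, signs also differed between the DPBS and the papain libraries for Tnfsf8 in CD4 T-like cells (0.29 and -1.15), Tnfsf11 in CD4 T-like cells (0.87 and -1.39), Tnfrsf10b in CD8 T-like cells (0.93 and -0.83), Tnfsf9 in conventional DC-like cells (-0.50 and 0.52), Tnfsf12 in alveolar macrophage-like cells (0.20 and -0.29) and Tnfrsf13b in B-like cells (-0.67 and 0.18). For papain against DPBS, they differed between WT and KO for Tnfrsf13b in B-like cells (-0.47 and 0.39) and in interstitial macrophage-like cells (-0.58 and 1.04), and for Tnfsf9 in interstitial macrophage-like cells (-1.27 and 0.86, or -1.12 and 1.28 without the top cell of each library).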

How the results depend on the processing

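Among 216 values of the 27 called ratios under other settings, 206 stayed within the counting interval, 10 moved outside it and 0 changed sign. The lower minimums of UMIs leave these 27 ratios as they were, so the values under those settings could not move. Of the 27, 20 were called under every setting in which they were taken. The other 7 fell short of the rule under at least 1 setting, and the report gives those values. The 11 members with 1 highest class in all libraries lost Tnfsf10 and Tnfsf12 with a transcript gate, Tnfrsf22 with no alignment, and Tnfrsf11a and Tnfsf10 without cells holding UMIs of another lineage, and none with doublets kept, with a mitochondrial limit of 10% or without the top cell. Some classes were absent: ILC2-like, conventional DC-like and interstitial macrophage-like with the gate, and conventional DC-like with no alignment. Interstitial macrophage-like cells were absent with doublets kept, and ILC2-like cells without cells holding UMIs of another lineage. A member counted as kept when any 1 class was highest in all libraries, also where its own class was absent. There the count does not show that its class stayed highest. Counts of called pairs between Papain KO and DPBS KO, 2 as reported, were 4 with a transcript gate and 1 each with no alignment, with a mitochondrial limit of 10% and without cells holding UMIs of another lineage. Between the DPBS libraries the gate gave 3. A minimum of 20 UMIs gave 21, 12, 11 and 21 calls in the order of the report, and no minimum gave 95, 96, 99 and 94. The causes were not tested, other than that lower minimums add pairs of few counts. No paired analysis was possible because each group is 1 library, and for the same reason no library could be left out of a group.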

Other observations

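Classes too small to compare held levels of several members, given here as values with no comparison between libraries. In mature DC-like cells (17, 12, 50 and 10 cells) Tnfsf9 stood at 191, 45.1, 131 and 313 CPM and Tnfrsf1b at 109, 135, 136 and 143 CPM. In pDC-like cells (plasmacytoid dendritic cells, 9, 1, 21 and 10 cells) Tnfrsf13b stood at 130, 304, 163 and 117 CPM, the 304 CPM resting on 4 UMIs of 1 cell. In plasma-like cells (5, 3, 25 and 11 cells) Tnfrsf13b stood at 243, 108, 110 and 109 CPM and Tnfrsf13c at 71.0, 95.5, 54.6 and 37.5 CPM.

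In CD4 T-like cells Tnfrsf25 was low in DPBS KO alone, at 26.6, 14.1, 32.8 and 24.8 CPM, which was -0.91 (-1.34 to -0.50, log2 ratio with its counting interval) against DPBS WT and short of 2-fold. The erythroid gene Hbb-bs was at 0.1 and 0.2 CPM in the DPBS libraries and at 74.8 and 61.2 CPM in the papain libraries over all kept cells, and its part in any result was not tested.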
